A study of Mus musculus with 2 samples.

Results

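Mitochondrial ribosomal proteins are the nuclear-encoded protein subunits of the ribosome inside mitochondria. All protein-coding genes whose symbol begins with Mrpl or Mrps followed by a digit were taken, which gave 78 genes of the 55536 annotated genes in the gene tables. The choice used names only and no measured value. Of the 78 genes, 51 encode proteins of the large subunit (every Mrpl gene, plus Mrps30 and Mrps18a, whose products sit in the large subunit in spite of their names) and 26 encode proteins of the small subunit. Mrps36 was kept apart, since its product is now known as a subunit of the oxoglutarate dehydrogenase complex of the citric acid cycle. The 5 Mrpl and Mrps pseudogenes in the tables are not members.

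The mitochondrial ribosome makes the few proteins that mitochondrial DNA encodes, all of them subunits of the respiratory chain or of ATP synthase. Its ribosomal RNAs come from mitochondrial DNA, while every one of its proteins is encoded in the nucleus, made in the cytosol and imported. Cells of the adrenal cortex are rich in mitochondria, which hold the side-chain cleavage enzyme Cyp11a1 and the 11-beta-hydroxylase Cyp11b1 of steroid synthesis.

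The samples were whole adrenal glands of female B6CASTF1/J mice, an F1 hybrid strain, aged 25 days, with no treatment named. Total RNA was sequenced in 2 libraries of the same group, called replicate 1 and replicate 2 by the biological replicate number in the labels, so the design holds no comparison between conditions. The labels give different animals in the tissue descriptions but the same library description and donor. Every SD below therefore speaks for the variation of these libraries alone, be it technical or between animals. Each p-value of a gene below covers counting error only and includes neither kind of variation. In bulk tissue, fewer cells of a type and less RNA per cell cannot be told apart. Replicate 1 had 19274793 counts on annotated genes and replicate 2 had 33459761. Nuclear coding genes without Lars2 held 36.3% of all counts in the former and 66.1% in the latter. Lars2, a mitochondrial leucyl-tRNA synthetase gene, was set aside because it held 532857 counts in replicate 1 and 2548 in replicate 2. Markers of the cortex (5 of 5) and of chromaffin cells (4 of 4) were present in both libraries and the kidney markers Umod and Slc34a1 stood at 1 count or 0. The 4 liver markers (Alb, Apoa1, Apob and Fgb) summed to 176 and 3.68 TPM in replicates 1 and 2, and the brown-fat markers Ucp1 and Cidea to 262 and 257 TPM.

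Levels are in TPM, each gene's share of all transcripts after correction for transcript length, and so can be compared between genes. Because ribosomal RNA took different shares of the libraries, levels are also given as coding TPM, the TPM rescaled to nuclear coding genes without Lars2. A ratio is the log2 of replicate 2 divided by replicate 1, taken on expected counts after scaling by the trimmed mean of M-values (TMM).

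All 78 genes were detected at 1 TPM or more in both libraries. Their median level was 16.1 in the first and 26 in the second library, that is 21.1 ± 6.97 TPM (SD, n = 2). On the coding TPM scale the medians were 78.04 and 76.85, a mean of 77.4 ± 0.84 (SD, n = 2). The deposited TPM was higher in replicate 2 for 77 of the 78 genes and lower for Mrpl23 only, whereas coding TPM was higher in replicate 2 for 37 and lower for 41.

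The members were moderately expressed, with a narrower spread than the detected coding genes as a whole. Each member was placed as a percentile among the 11339 nuclear coding genes at 1 TPM or more in both libraries, and the median of these percentiles was 76.1. The median of the 11339 genes was 10.0 ± 3.72 TPM (SD, n = 2). A mean level from 10 to 50 TPM was found for 65 members, a higher one for 5 and a lower one for 8. The 90th percentile of the members' levels was 4.26 times the 10th in replicate 1 and 4.55 times in replicate 2, against 18.8 and 17.6 times over the detected coding genes. A narrow spread was not particular to the members. It was 5.67 and 4.37 times for nuclear genes of the respiratory chain and ATP synthase, and 6.51 and 5.91 times for cytosolic ribosomal protein genes. The order of the members was much the same in both libraries, with a Spearman correlation of 0.96 over 78 genes that share the same library and annotation.

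**Figure D1:**
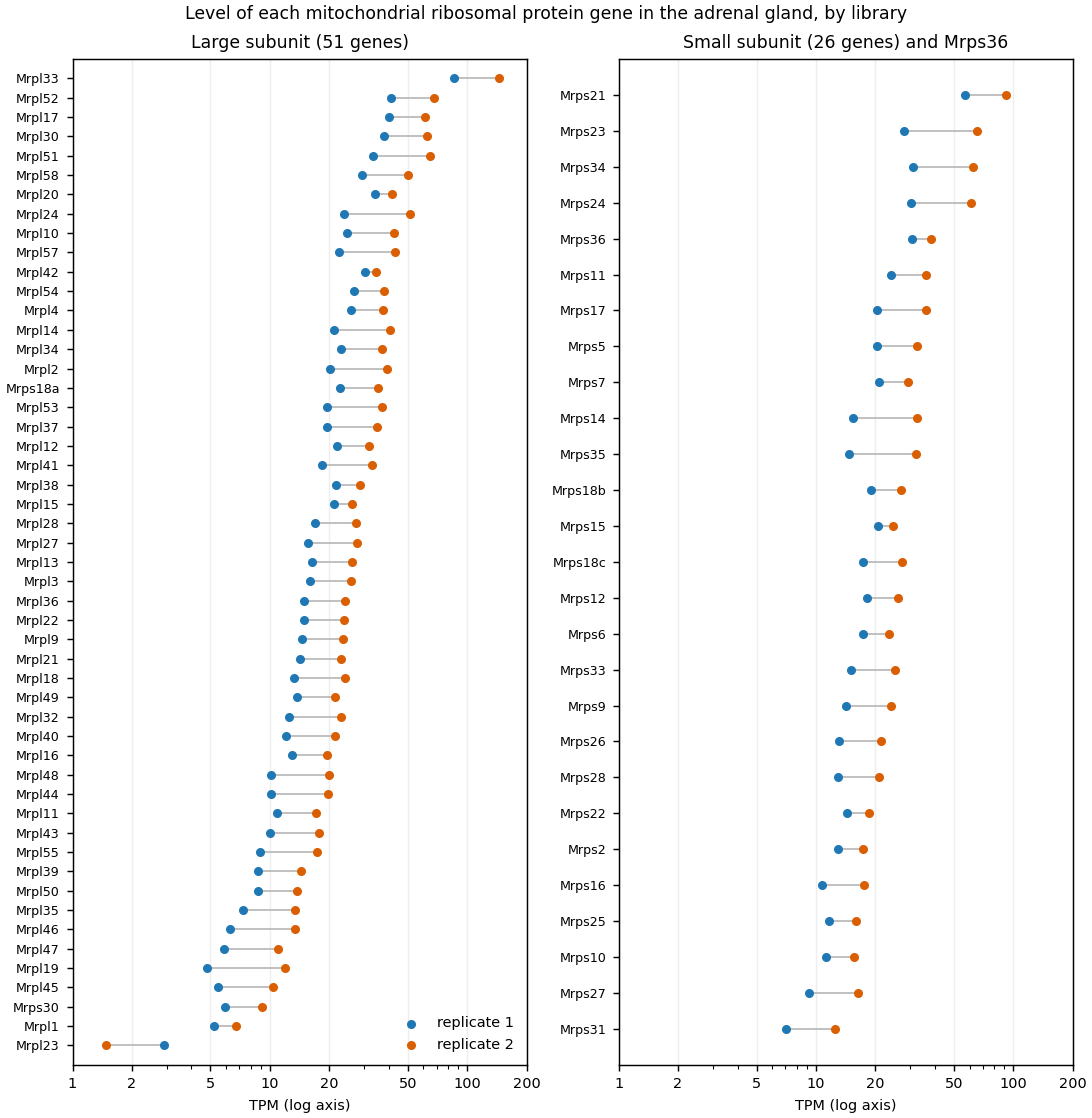
TPM of each of the 78 genes (log axis) in replicate 1 (blue) and replicate 2 (orange), with the 51 large-subunit genes on the left and the 26 small-subunit genes and Mrps36 on the right, sorted by mean level; a grey line joins a gene's 2 values. Mrpl33 stands alone at the top with 85.7 and 144.5 TPM, and Mrpl23 at the bottom, the only gene with a lower TPM in replicate 2.

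The subunits were present at like levels. The median over the 51 large-subunit genes was 15.96 and 26.03 TPM in replicates 1 and 2, and the median over the 26 small-subunit genes was 16.3 and 25.6 TPM. The ratio of the large to the small median was 0.98 in replicate 1 and 1.02 in replicate 2. The large-subunit genes had the wider range, from 2.19 to 115.1 TPM as means of the libraries, against 9.79 to 74.4 TPM for the small subunit. The 47 genes listed here with a counterpart in bacterial ribosomes had a median of 17.2 and 26.2 TPM, and the 30 listed as specific to mitochondria, among which Mrpl55 is of unsure assignment, had 14.1 and 21.4 TPM. The order of these medians was the same in both libraries, and with 2 values against 2 no exact permutation test can go below a two-sided p of 0.333.

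Mrpl33, a small protein near the exit site for tRNA, had the highest level. It was measured at 85.7 and 144.5 TPM in replicates 1 and 2 (115.1 ± 41.6, SD, n = 2), or 414.2 and 427.2 coding TPM. That was 5.31 and 5.56 times the median of the members in the same library. Protein-coding transcripts held 39.8% and 73.4% of its TPM, so the rank is that of all transcripts of the gene. In a second quantification of the same libraries, taken up below, its leading transcript, of the protein-coding class, held 79.6% and 53.1%. The change between the libraries thus went the other way, and the coding share of Mrpl33 is not settled. The gene lies on chromosome 5, from 31596935 to 31664384 on the plus strand (mm10).

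Mrps21, a short small-subunit protein with a bacterial counterpart, came next with 57.2 and 91.7 TPM (74.4 ± 24.5, SD, n = 2). Over all transcripts, Mrpl33 exceeded it 1.499-fold in replicate 1 and 1.58-fold in replicate 2. Protein-coding transcripts held 99.4% and 99.2% of the TPM of Mrps21, a larger share than in Mrpl33. The mitochondria-specific Mrpl52 followed with 41.3 and 67.5 TPM (54.4 ± 18.5, SD, n = 2). Mrpl17, which lies near the exit of the peptide tunnel, had 40.0 and 61.0 TPM, Mrpl30 38.0 and 62.8 TPM, and Mrpl51 33.2 and 65.1 TPM. Mrps23 had 27.9 and 65.6 TPM and Mrps34 30.9 and 62.3 TPM, completing the 8 highest. From Mrpl52 down to Mrps34 the means lay between 46.6 and 54.4 TPM. Mrpl52 was the highest of these in both libraries, while the order of the others differed between the libraries and is not resolved. Of the 8 highest genes in each library, 6 were the same.

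The lowest level was that of Mrpl23, a tunnel-exit protein of the large subunit, with 2.90 and 1.48 TPM in replicates 1 and 2. This value depended on the quantification and is taken up below. Above it stood Mrpl1, a stalk protein at the tRNA exit, with 5.23 and 6.75 TPM (5.99 ± 1.07, SD, n = 2), and Mrps30, with 5.92 and 9.16 TPM (7.54 ± 2.29, SD, n = 2). Mrpl45, which binds the ribosome to the inner membrane, had 5.44 and 10.4 TPM. Mrpl19 had 4.81 and 11.9 TPM, Mrpl47 5.85 and 11.0 TPM, Mrps31 7.07 and 12.5 TPM and Mrpl46 6.25 and 13.4 TPM. From Mrps30 up to Mrpl46 the order differed between the libraries and is not resolved. Of the 8 lowest genes in each library, 7 were the same.

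High and low members differed in length. The 8 highest had a length, weighted over transcripts in the deposited table, between 411 and 977 bases, and the 8 lowest between 1132 and 3346 bases, so the 2 sets did not overlap. Over all 78 members the Spearman correlation of level with length was -0.66, and over the 11339 detected coding genes it was -0.19. TPM divides by length, so level and length share a term, and the genes are not independent.

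Mrpl12 and Mrps36 were fixed beforehand for their special roles together with Mrps30, and Mrpl58 was added after its values were seen. Mrpl12, Mrpl58 and Mrps36 stood above the members' median of 21.1 TPM, while Mrps30, at 7.54 TPM, stood below it. Mrpl12, a stalk protein that also binds the mitochondrial RNA polymerase, had 21.9 and 31.7 TPM (26.8 ± 6.95, SD, n = 2). Mrpl58, a peptidyl-tRNA hydrolase that frees stalled ribosomes, had 29.4 and 50.4 TPM (39.9 ± 14.8, SD, n = 2). Mrps36, of the oxoglutarate dehydrogenase complex, had 30.6 and 38.3 TPM (34.5 ± 5.46, SD, n = 2).

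The 3 paralogs of the bacterial protein S18 had nearly the same level. Mrps18a, of the large subunit, had 22.8 and 35.3 TPM (29.0 ± 8.86, SD, n = 2). Mrps18b had 19.0 and 26.9 TPM (23.0 ± 5.64, SD, n = 2) and Mrps18c 17.3 and 27.1 TPM (22.2 ± 6.92, SD, n = 2), both of the small subunit. Mrps18a was highest in both libraries, and the order of the other two differed between them.

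Against 2 related groups the members were low. The 79 nuclear genes of the respiratory chain and ATP synthase, among whose products the partners of the proteins made on this ribosome are found, had a median of 74.7 and 117.9 TPM. That was 4.63 and 4.54 times the median of the members. The 85 cytosolic ribosomal protein genes had a median of 155.7 and 250.1 TPM, which was 9.65 and 9.62 times that of the members. These ratios of medians were much alike in the libraries, at 4.58 ± 0.064 and 9.63 ± 0.021 (SD, n = 2).

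**Figure D2:**
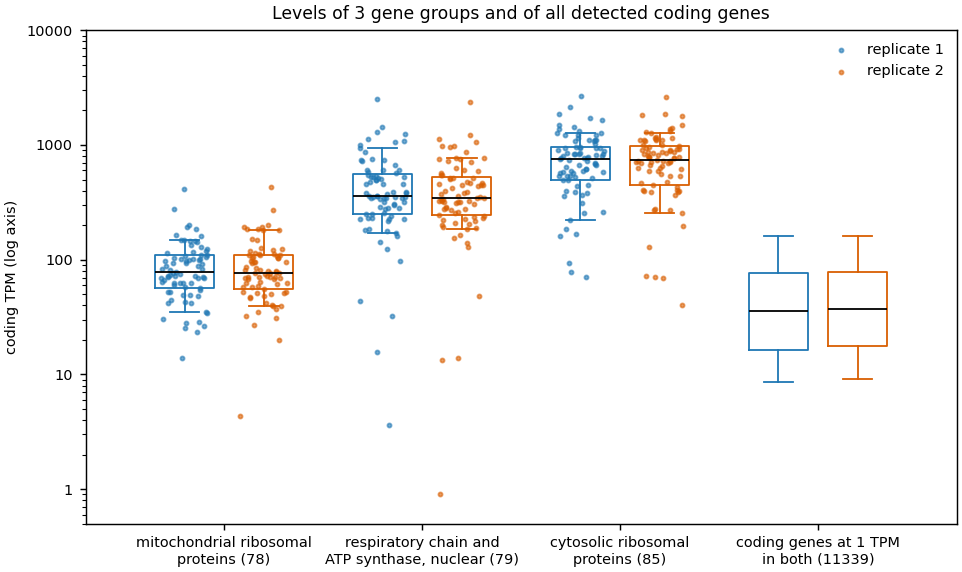
Coding TPM (log axis) in replicate 1 (blue) and replicate 2 (orange) for the 78 members, 79 nuclear genes of the respiratory chain and ATP synthase, 85 cytosolic ribosomal protein genes and the 11339 coding genes at 1 TPM or more in both libraries. Points are genes (3 cytosolic genes per library under 0.5 coding TPM are not drawn), boxes span the quartiles with the median in black, and whiskers run from the 10th to the 90th percentile; the members' boxes lie below those of both comparison groups and above that of the coding genes.

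The other genes of mitochondrial protein synthesis were fixed as lists. The 5 mitochondrial ribosomal proteins with other names (Aurkaip1, Chchd1, Dap3, Gadd45gip1 and Ptcd3) had a median of 22.7 and 35.2 TPM, close to the members. Of these, Dap3, a GTP-binding small-subunit protein first described in cell death, had 25.0 and 46.4 TPM. The 24 measured genes of ribosome assembly and rRNA modification had a lower median, 5.995 and 9.545 TPM, as did the 20 genes that charge tRNAs in mitochondria, 6.74 and 10.6 TPM. The 15 translation and RNA-stability factors had 7.56 and 15.8 TPM, led by the elongation factor Tufm with 37.7 and 63.0 TPM.

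The sequences just before the start of the genes are shown because members are often described as targets of the factors NRF1 and GABPA, an ETS protein, which act on nuclear genes of mitochondria. RefSeq promoter windows (GRCm38.p6, 250 bases before to 50 after the start) were matched by symbol for 69 of the 78 members. The start is that of RefSeq and can lie inside the GENCODE gene. The Mrpl33 window, from 31613701 to 31614000, lies within the gene span given above, and the windows of Mrps24 and Mrpl36 also lie within their genes. The windows were searched on both strands for GCATGCGC, the core of the NRF1 motif, for the full NRF1 palindrome, which has GC before that core, for CCGGAAG (ETS), for the YY1 motif and for CCAAT (NF-Y). Stretches of 30 bases with the motif in capitals are given on the strand of the gene, 5′ to 3′. Mrpl33 and Mrpl17 were chosen as the highest members with an NRF1 core, the next 3 as those with the full palindrome, Mrps18a and Mrps18b for the paralog set, Mrpl51 and Mrpl52 as high members with an ETS core, and Mrps11 as the only member with YY1 before the start.
Mrpl33 (chr5:31613921-31613950, plus): agccttctaccggaacccGCGCATGCcccg
Mrpl17 (chr7:105811088-105811117, minus): agccacgcgccgagttactGCGCATGCgtc
Mrpl9 (chr3:94443298-94443327, plus): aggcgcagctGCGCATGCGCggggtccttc
Mrpl32 (chr13:14613105-14613134, minus): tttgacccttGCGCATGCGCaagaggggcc
Mrpl39 (chr16:84735350-84735379, minus): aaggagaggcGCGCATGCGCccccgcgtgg
Mrps18b (chr17:35916645-35916674, minus): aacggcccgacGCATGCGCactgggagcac
Mrps18a (chr17:46110967-46110996, plus): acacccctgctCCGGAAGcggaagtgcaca
Mrpl51 (chr6:125192099-125192128, plus): caggggctaaaCCGGAAGtatttgactgga
Mrpl52 (chr14:54426851-54426880, plus): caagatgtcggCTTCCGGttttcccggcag
Mrps11 (chr7:78783012-78783041, plus): cctacgggcgCCGCCATCTTtctgtcttcc
In Mrpl33 and Mrpl17 the NRF1 core lies on the opposite strand, and so do the ETS core of Mrpl52 and the YY1 motif of Mrps11.

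Over the whole windows, 8 of 69 members (11.6%) held the NRF1 core, compared with 2.80% of all 27025 genes in the table and 5.89% of the 8900 detected coding genes with a window. The full palindrome was found in 3 members (4.35%), in 0.977% of all genes and in 2.20% of the detected coding genes. The ETS core was found in 25 members (36.2%), in 9.12% of all genes and in 19.4% of the detected coding genes. YY1 was found in 5 members (7.25%), in 0.899% of all genes and in 2.36% of the detected coding genes, and with only the bases before the start in 1.45%, 0.289% and 0.685%. CCAAT was found in 27 members (39.1%), in 37.9% of all genes and in 38.8% of the detected coding genes. At least 1 of the NRF1 core, ETS and YY1 motifs was present in 32 members, and 37 held none of these letters. The 25 members with an ETS core had a median of 18.2 and 27.1 TPM, and the 44 without had 14.4 and 23.6 TPM. The 8 members with an NRF1 core had 16.9 and 25.3 TPM, and the 61 without had 15.6 and 25.2 TPM, so the medians were close. A match is a stretch of letters, and binding was not measured.

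Members often start back to back with another gene. In the GENCODE M21 annotation 33 of the 78 members (42.3%) had a protein-coding gene on the other strand with its start within 1000 bases and pointing away, compared with 10.8% of all protein-coding genes and 16.6% of the detected ones. The neighbour was itself at 1 TPM or more in both libraries for 28 of the 33, and it was lower than the member in both libraries for 24. For 15 of the 33 the gene models overlapped at their starts. Mrps11 and Mrpl46 form such a pair on chromosome 7, with Mrps11 at 116.1 and 106.1 coding TPM and Mrpl46 at 30.2 and 39.7 coding TPM. Mrpl49 starts 59 bases from Fau, a cytosolic ribosomal protein gene that had 187.3 and 334.6 TPM, while Mrpl49 had 13.8 and 21.5 TPM. Mrpl36 overlaps Ndufs6 and Mrpl47 overlaps Ndufb5, genes of complex I of the respiratory chain. The library kit is directional per the labels, but whether the counting used strand is not given in the sources used here, so reads from overlapping starts may be shared.

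The levels of some members depended on how reads were assigned. A second quantification, summed per gene, gave a higher TPM than the gene table for 77 of the 78 genes, with a median log2 ratio of 0.70 over the members and 0.64 over the detected coding genes. The order of the members was similar in both, with a Spearman correlation of 0.87 over the 78 genes. Mrpl33 was again the highest, and 6 of the 8 highest genes were shared.

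Mrpl23 was the exception in size. The gene table gave it 45.9 and 82.6 expected counts, and the second quantification 209.3 and 615.6. Its level was 2.19 ± 1.00 TPM (SD, n = 2) in the former, the lowest of the 78, and 49.7 ± 23.7 TPM (SD, n = 2) in the latter, at rank 21. The processed pseudogene Mrpl23-ps1 held 147.1 and 483.4 expected counts in the gene table and 0 in the second quantification. Of the stretches of 31 bases in the leading transcript of Mrpl23, 77.04% also occur in Mrpl23-ps1. Summed with its pseudogene, Mrpl23 had 193 and 566 counts, with 76.2% and 85.4% of them on the pseudogene. The summed level was 21.6 and 33.4 TPM in replicates 1 and 2 (27.5 ± 8.39, SD, n = 2). That was above the members' medians of 16.1 and 26 TPM. The level of Mrpl23 on its own is therefore uncertain.

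The other members with large differences between the quantifications were Mrpl27, Mrpl22, Mrps33 and Mrpl3. Mrpl27, whose tail reaches toward the peptide-bond centre, had 21.7 ± 8.55 TPM (SD, n = 2) in the gene table and 72.2 ± 52.9 TPM in the second quantification. Mrpl22, a protein of the tunnel wall, had 19.3 ± 6.26 and 47.03 ± 29.7 TPM, Mrps33 20.1 ± 7.28 and 49.0 ± 28.6 TPM, and Mrpl3 20.8 ± 6.89 and 50.2 ± 30.03 TPM. Mrpl17 was the only member with a lower level in the second quantification, 50.5 ± 14.8 against 40.1 ± 20.7 TPM. In replicates 1 and 2 it had 40.0 and 61.0 TPM in the gene table and 25.5 and 54.8 TPM in the second quantification.

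**Figure D3:**
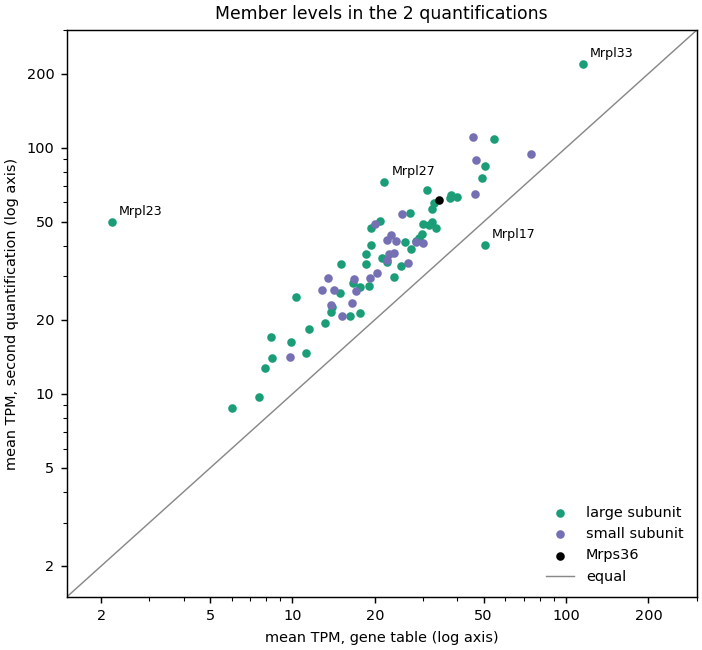
Mean TPM of the 2 libraries for each member in the gene table (x, log axis) and in the second quantification summed per gene (y, log axis), with large-subunit genes in green, small-subunit genes in purple and Mrps36 in black; the line marks equal values. Points run parallel to the line and above it, apart from Mrpl23 far above and Mrpl17 below.

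Many members shared sequence with other annotated genes. For 40 of the 78 members the leading transcript shared at least 1 stretch of 31 bases with another annotated gene. Such a match alone does not show a copy, and no share for all genes is given for comparison. Mrpl24 shared 7.6% of its stretches, with 746 other genes, and Mrpl9 shared 4.4%, with 568 other genes. For 21 members the leading transcript shared more than 20% of its stretches. Among these 21, the closest other gene was a processed or other pseudogene for 17, and it held fewer than 10 counts in each library for 14. Mrpl53, on chromosome 6 from 83109040 to 83109939, shared all of its stretches with the protein-coding model Gm42688. That model held 128.6 and 441.3 counts beside the 191.2 and 694.6 of Mrpl53. Whether Gm42688 is a copy elsewhere or a model over the same locus was not tested. Mrps5 shared 55.4% with the pseudogene Gm13328, which held 22.9 and 70.8 counts. Mrpl23, Mrpl53 and Mrps5 were the 3 members that shared over 50%. The log2 ratio of the second quantification to the gene table was 4.51 for Mrpl23, but 0.56 for Mrpl53 and 0.37 for Mrps5, against a median of 0.70 over the members.

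Reads were also split among transcripts of a gene. The members had 1 to 11 annotated transcripts, with a median of 4. The leading transcript carried a median of 83.3% of a gene's abundance in the first quantification, over 90% for 29 members and under 50% for 8. For 61 members it was of the protein-coding class, and for 17 it was not, being annotated as nonsense-mediated decay for 6, as processed transcript for 6 and as retained intron for 5. In 12 of these 17 the same transcript led in the second quantification. The TPM of such a gene includes much RNA that is not annotated to encode the ribosomal protein.

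Mrpl57 is an example, with 91.7% and 95.3% of its TPM on a model that retains an intron and 6.5% on coding transcripts as a mean of the libraries. Mrps16 had 6.4% and Mrps26 4.7% on coding transcripts. Mrpl51, among the highest members by gene level, had 5.9%, and its leading model is a processed transcript. In these 4 genes the second quantification gave shares from 1.7% to 5.4%, so the split was the same in kind.

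For other members the quantifications disagreed. Mrps14, of the small-subunit head, had 8.7% on coding transcripts in one quantification and 87.4% in the other. Mrps11, of the small-subunit platform, had 18.9% and 92.5%. Mrpl17 went the other way with 79.9% and 21.6%, and Mrpl38 with 83.0% and 32.9%. The coding share of these genes is not settled by the files.

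**Figure D4:**
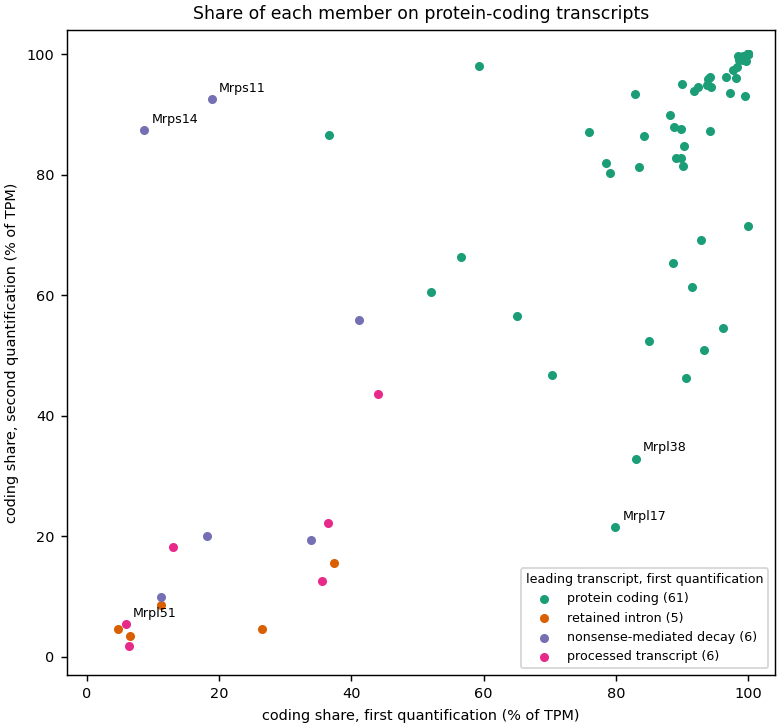
Share of each member's TPM (percent, mean of the 2 libraries) on transcripts of the protein-coding class in the first (x) and second (y) quantification, coloured by the class of the leading transcript in the first. Most members lie at the top right, 14 have a leading transcript outside the coding class in both, and Mrps14, Mrps11, Mrpl17 and Mrpl38 lie far off the diagonal.

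Among members at 10 TPM or more, the leading transcript had the smallest share in Mrpl24, with 34.2% and 18.8%, Mrps5, with 27.9% and 29.1%, and Mrps23, with 47.8% and 14.6%. Mrpl48 had 51.9% and 32.2%, and Mrpl55 48.5% and 37.9%. In Mrpl24 and Mrps23 the shares moved by more between the libraries than in Mrps5. In Mrps23 the counts, 465 and 1495, gave a log2 ratio of 0.00 after TMM scaling, while its coding TPM was 135.1 and 194.0, so the split among transcripts of different length moved its level but not its count.

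Differences between the libraries were small. An exact conditional binomial test, adjusted by Benjamini-Hochberg over the 11542 genes with a mean count of 100 or more, set each gene's counts against counting error alone. It called 33.5% of all genes tested different, 17.6% higher and 15.9% lower in replicate 2. Of the 78 members 77 were tested, all but Mrpl23, and 15 were called, 3 higher and 12 lower. That is 19.5% of those tested, below the share of all genes, though a call also depends on a gene's count. The median log2 ratio was -0.01 over the members and 0.03 over all genes tested, and no member tested differed by more than 0.5. The median size of the ratio without its sign was 0.11 for the members and 0.16 for all genes tested.

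The split into higher and lower calls depended on the scaling. With scaling by spike-in counts, which moved the median of all genes to 0.16, 14 members were called higher and 7 lower. Of all 11542 genes tested, 4452 were then called higher and 900 lower. With coding counts 5 members were higher and 11 lower, where 34.6% of all genes tested were called. With total counts, which moved the median of all genes to 0.91, all 77 members were higher, as were 11266 of the 11542 genes. Relative to the median of all genes the members' median was -0.037 under each of these scalings, which is fixed by arithmetic, since a scaling shifts every ratio alike. It was -0.040 with a minimum mean count of 10, -0.070 with no minimum count and -0.079 in the second quantification. Each of these scalings raised all ratios, so it is no check that the 3 members called higher stayed so. Among the other settings, Mrps14 was not called with no minimum count, and Mrps34 was not called in the second quantification. Of the 12 called lower, 7 were also called lower with spike-in counts.

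By subunit, 6 of 26 small-subunit members and 5 of 50 tested large-subunit members were called lower, together with Mrps36, and 2 small-subunit members and 1 large-subunit member were called higher. Of all genes tested, 15.9% were called lower and 17.6% higher. In either direction 30.8% of the small-subunit and 12% of the tested large-subunit members were called, against 33.5% of all genes tested. These are few calls against counting error alone, and a difference between the subunits was not tested. Each direction here is that of TMM scaling and turns for the lower calls under total counts. All 15 had the same sign in the second quantification, and 13 of them were called there too, the exceptions being Mrps6 and Mrps34. The second quantification called 21 of 78 members, where it called 35.5% of all genes tested. Of these members 8 were not called in the gene table, Mrpl33, Mrpl46 and Mrps24 higher and Mrpl12, Mrps12, Mrps18b, Mrps18c and Mrps21 lower.

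Mrps15, an rRNA-binding protein of the small-subunit platform on chromosome 4 from 126046925 to 126055532, had 278 counts in replicate 1 and 638 in replicate 2, or 99.6 and 72.5 coding TPM. Its log2 ratio was -0.48 (95% interval -0.69 to -0.28, counting error only), the lowest of the members tested, with an adjusted p of 4.41e-05 by the exact binomial test. Mrpl42, specific to mitochondria, had 146.5 and 102.5 coding TPM and a log2 ratio of -0.47 (-0.68 to -0.26). Mrpl20, which binds rRNA early in assembly of the large subunit, had 165.5 and 122.5 coding TPM and -0.44 (-0.63 to -0.25). For these 3, coding TPM and the TMM ratio of both quantifications were lower in replicate 2, whereas deposited TPM was higher there and the ratios with total counts were above 0.

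Mrpl15 had 102.0 and 76.9 coding TPM and a log2 ratio of -0.43 (-0.62 to -0.24), and Mrpl38 had 104.2 and 84.2 coding TPM and -0.42 (-0.58 to -0.25). Both were called, as were Mrps25, Mrps22, Mrps2, Mrps6, Mrps7 and Mrpl4, with log2 ratios from -0.37 to -0.23. Mrps36 had 148.0 and 113.3 coding TPM and -0.38 (-0.58 to -0.18). The total-count scaling turned these signs too. Mrps6 was not called in the second quantification, where its adjusted p was 0.387 by the same exact test.

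Mrpl24, a large-subunit protein near the tunnel exit on chromosome 3 from 87919506 to 87923672, had 407 counts in replicate 1 and 1635 in replicate 2, or 114.9 and 151.6 coding TPM. Its log2 ratio was 0.32 (0.17 to 0.48), with an adjusted p of 0.000301 by the exact binomial test. Mrps14 had 74.2 and 95.7 coding TPM and 0.30 (0.06 to 0.54), and Mrps34 had 149.4 and 184.2 coding TPM and 0.21 (0.06 to 0.37). Mrpl46 had a larger ratio, 0.36 (0.05 to 0.68), on 106 and 436 counts, and was not called (adjusted p = 0.0643, exact binomial test), but was called higher in the second quantification (adjusted p = 0.0308, same exact test) and with total, spike-in or coding counts. Mrpl14 had 0.24 (-0.01 to 0.49), an interval that holds 0. Mrpl33, the highest member, had 0.15 (0.01 to 0.28) and was not called (adjusted p = 0.0774, exact binomial test). It too was called higher in the second quantification (adjusted p = 0.0284, same exact test) and with total, spike-in or coding counts. Those scalings raise all ratios.

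**Figure D5:**
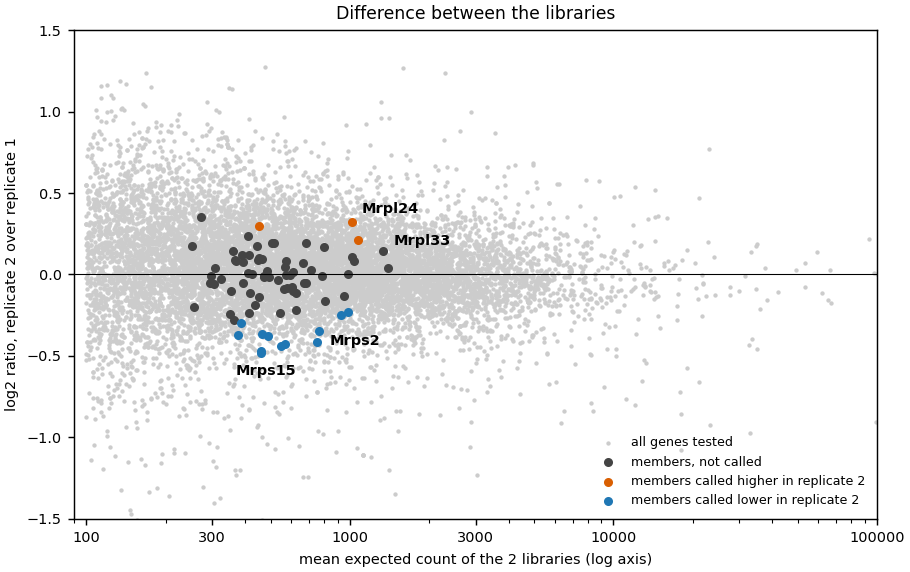
Log2 ratio of replicate 2 over replicate 1 (TMM scaling) against the mean expected count (log axis) for all genes tested (grey) and for the 77 members tested, with those called higher in orange, those called lower in blue and the others in dark grey; 96 genes outside the axes are not drawn. All members lie between -0.48 and 0.36; with total-count scaling every point would sit higher and the blue members would lie above 0.

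The RNAs of mitochondrial DNA differed more in size between the libraries. The small-subunit rRNA mt-Rnr1 had 148452 and 53243 TPM, a log2 ratio of -2.22, and the large-subunit rRNA mt-Rnr2 had 98652 and 53354 TPM, a ratio of -1.63. Of the 13 protein-coding genes of mitochondrial DNA, 11 were called lower and 2 higher, with a median ratio of -0.66. The 2 higher ones, mt-Co2, with 0 counts in replicate 1, and mt-Atp6, had log2 ratios of 0.03 and -0.44 in the second quantification. Of the 77 tested nuclear genes of the respiratory chain and ATP synthase, 29 were called lower and 7 higher, with a median of -0.09. Of the 82 tested cytosolic ribosomal protein genes 35 were lower and 17 higher, with a median of -0.06. The shares called were 46.8% and 63.4%, against 33.5% of all genes tested, and a call also depends on a gene's count. Some of the cytosolic calls depended on the quantification. Rpl10 had 1.54 in the gene table and -0.03 in the second quantification, and Rps23 -0.96 and 0.10. Others did not, such as Rpl13a with -0.41 and -0.44. As for the members, total-count scaling lifts these ratios. Among the lists of mitochondrial translation, 1 of 24 assembly genes (Ngrn) was higher and 1 (Noa1) lower, 2 of 15 factors (Tsfm and Mtrf1) were higher and 4 (Gfm1, Gfm2, Lrpprc and Mrrf) lower, and 1 of 5 other ribosomal proteins (Gadd45gip1) was lower. Of the 20 genes that charge tRNAs, 2 (Iars2 and Sars2) were higher and 2 (Lars2 and Mars2) lower, with a log2 ratio of -9.39 for Lars2.

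Some markers of cell types moved with the libraries as well. Both brown-fat markers were lower in replicate 2, summing to 1266 and 760 coding TPM, as were all 3 adipocyte markers, with 2382 and 2001, and all 4 liver markers, with 849 and 10.9. Of the 5 cortex markers 2 were higher and 1 lower, with sums of 43827 and 49231 coding TPM. The part of these cells in the ratios of the members was not tested.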

How the data were processed

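The authors deposited, per library, a gene table and 2 transcript tables. Its columns are expected counts, that is reads estimated by the authors for a gene or transcript, and TPM, which the authors scaled over everything quantified, so that rRNA takes part of it. One transcript table carries, per the file headers, each transcript's share of its gene in percent and belongs to the same quantification as the gene table. The other is a second quantification and was summed per gene. Notes deposited with the files name build mm10 and GENCODE M21, and the program is not given in the sources used here.

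Expected counts were rounded for TMM (edgeR 4.0.16, R 4.3.3) and for the exact binomial test, adjusted by Benjamini-Hochberg with a threshold of 0.05 over genes averaging 100 counts or more. edgeR's quasi-likelihood test was not used, since 1 group has no contrast. Ratios had a prior of 1 count, and intervals (95%, Clopper-Pearson) cover counting error only. The test was tested on simulated data. Alternatives changed the scaling, the count minimum, the prior, the quantification, the detection threshold and the promoter window. Members and lists were chosen with earlier results of these data known. Named members were the 8 highest and 8 lowest by mean TPM, the 5 highest and 5 lowest ratios, the 5 with the largest difference between quantifications, the 5 with the smallest leading share at 10 TPM or more, and Mrps18a, Mrps18b, Mrps18c, Mrpl12, Mrps30 and Mrps36; others named serve as examples chosen after their values were seen. The 24 measured assembly genes come from a list of 25. Counts on spike-ins, tRNA entries and unnamed rows, 0.473% and 0.797% of all counts, were left out.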

Additional observations from a re-analysis of the deposited data

How the results depend on the processing

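All 78 members stayed detected with the second quantification, at 0.5 TPM and with any count above 0, while 76 passed 5 TPM and 65 passed 10 TPM in both libraries. With the second quantification the median was 37.7 TPM for all members, 38.6 for the large and 33.4 for the small subunit, the ratio of these medians was 1.13, the 90th over the 10th percentile was 4.12, the median leading share was 76.8% and the median log2 ratio -0.037. Rescaled to coding genes the median level was 77.4. Scaling by total counts gave a median log2 ratio of 0.88 and 77 calls, with 98.4% of all genes tested called. It turned the ratios of Mrpl15 to 0.46, Mrpl20 to 0.45, Mrpl38 to 0.47, Mrpl42 to 0.42, Mrps15 to 0.40 and Mrps36 to 0.51. Spike-in scaling gave a median of 0.12 and 21 calls, with 46.4% of all genes tested called. The cause was not tested. Other counts of called members lay between 14 and 21, in settings that called 15.8% to 35.5% of all genes tested. Leaving out a replicate gave medians from 16.1 to 26 TPM, and no test is left with 1 library. In the 250 bases before the start alone, 24.6% of the windows held the ETS core and 1.45% the YY1 motif. No paired analysis was possible because the series has 1 group. The depth of replicate 1, with 45.9 to 649 counts a member, limits what could be called.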
